A study of Homo sapiens with 6 samples.

Results

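Mitochondrial ribosomal protein genes are the nuclear genes whose products are carried into mitochondria and assembled there with mitochondrially encoded rRNA. The set described was every gene line of the count table whose symbol is MRPL or MRPS followed by a number and, at most, a letter from A to C. It holds 77 of the 25343 gene lines, 48 with an MRPL symbol (large subunit) and 29 with an MRPS symbol (small subunit). The small subunit of the mitochondrial ribosome reads the mRNA, and the large subunit holds the peptidyl transferase centre and the exit tunnel. This ribosome makes only the few proteins encoded by mitochondrial DNA, which are core subunits of the respiratory chain and the ATP synthase. Part of its proteins have a counterpart in the bacterial ribosome, from which it descends, and the others occur only in mitochondrial ribosomes. Their RNA comes from nuclear genes scattered over many chromosomes, and nuclear factors such as NRF1 and the ETS-family factor GABPA are known to act on many genes for mitochondrial proteins.

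The RNA came from A375, an established human melanoma cell line, after 24 h with 50 nM panobinostat (3 libraries) or with an equal volume of the PBS vehicle (3 libraries). Panobinostat is a hydroxamate that inhibits histone deacetylases of several classes, enzymes that remove acetyl groups from histones and other proteins. All libraries come from the same cell line. No label says that the libraries of a group come from separate cultures, so a p-value reflects only the variation among the 6 libraries, which may be technical.

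Libraries held 32293283 to 38944399 counts, and 3 counts corresponded to 0.0774 to 0.0928 CPM, read counts scaled to a common library size. All CPM below use TMM, an edgeR normalization for differences in library composition, and each mean ± SD has n = 3. Of 8 melanoma lineage markers, MLANA and TYR had 0 counts in every library, and PMEL had only 27, 24 and 19 counts with vehicle. With vehicle the melanoma identity of the cells therefore rested on ERBB3, SOX10, S100B, S100A1 and MITF. The 8 markers together summed to 1991 to 2139 CPM with vehicle and to 759.5 to 833.7 CPM with panobinostat. ERBB3, SOX10, S100B, S100A1 and MITF fell, while PMEL rose from a mean of 0.628 to 194 CPM. The 8 markers of leukocytes, endothelium and epithelium summed to 4.90 to 6.27 and 6.68 to 7.11 CPM, of which LYZ fell from 5.17 to 3.02 CPM, PECAM1 rose from 0.0981 to 2.91 and EPCAM from 0.0624 to 0.690. Whether these shifts have a part in the changes of ribosomal protein genes was not tested. In RNA of whole cultures, fewer cells that express a gene and less of its RNA per cell cannot be told apart.

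RNA of mitochondrial ribosomal proteins was lower with panobinostat in most of the genes and by modest amounts. A gene was called where edgeR's quasi-likelihood test gave a Benjamini-Hochberg adjusted p under 0.05 over all 15499 genes tested. Of the 76 members that passed the filter on low counts, 50 fell (65.8%), 12 rose (15.8%) and 14 were not called. Over all genes tested 41.0% fell and 41.8% rose, so 82.8% changed and a called member was in itself common. The median log2 fold change was -0.21 over the members, with quartiles of -0.54 and 0.00, and 0.01 over all genes tested. Among the 7819 tested genes with a mean level within the range of the members, 50.3% fell, 34.8% rose and the median was -0.13.

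The changes were small beside those elsewhere in the table. Of the 76 tested members, 15 fell by at least 1.5-fold, where the share was 22.8% of all genes tested, and 3 by at least 2-fold (MRPS7, MRPL9 and MRPS15), where it was 11.7%. No member rose by 1.5-fold or more, against 27.5% of all genes tested. Of the 7819 tested genes with a mean level within the range of the members, 1933 fell by at least 1.5-fold and 872 by at least 2-fold. In the same 7819 genes, 1231 rose by at least 1.5-fold. The members ran from a log2 fold change of -1.20 to 0.47. In 49 members every panobinostat library lay below every vehicle library, in 12 every one lay above, and in 15 the ranges overlapped. Over all genes tested the ranges were apart downward in 41.5% and upward in 42.0%.

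**Figure D1:**
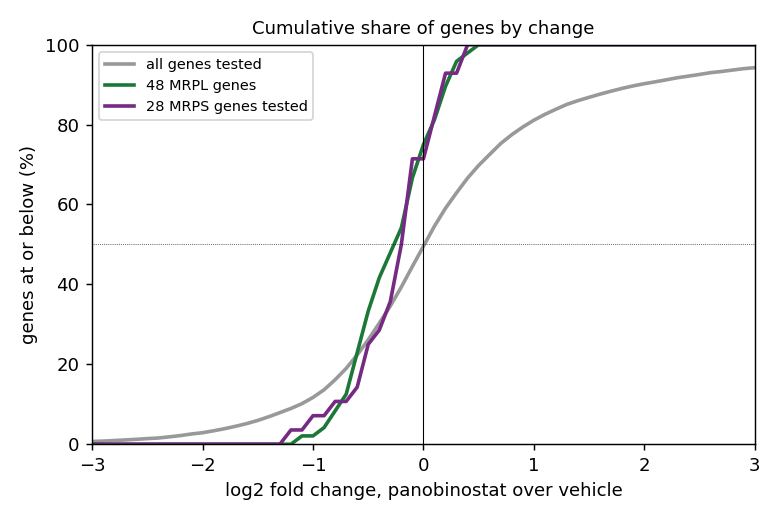
Cumulative share of genes (y axis, percent) at or below a given log2 fold change of panobinostat over vehicle (x axis) for all 15499 genes tested, the 48 MRPL genes and the 28 tested MRPS genes. Both curves of mitochondrial ribosomal proteins are steeper than that of all genes and reach 50 percent left of zero, at medians of -0.26 for MRPL and -0.20 for MRPS.

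The members were well covered. Tested members had 422 to 8223 counts in a library, and the SE of their log2 fold changes ran from 0.04 to 0.08 with a median of 0.05. MRPS24 (uS3m of the small subunit) was the exception. It had 0, 1 and 2 counts with vehicle and 1, 0 and 0 with panobinostat, and was not tested. Its exons lie within the annotated readthrough gene URGCP-MRPS24, whose line had 0 counts in all 6 libraries, so nothing about its level in these cells follows from its line.

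Each subunit is shown first by short stretches of promoter, since these genes are spread over the genome and moved in both directions. The stretches are the 100 bases before the annotated start, taken from RefSeq (GRCh38.p14). Chosen were the pair with the largest falls and the pair with the largest rises in each subunit, among called members with a RefSeq promoter. MRPL23 (log2 fold change -0.96) and MRPL15 (-0.72), which fell more than MRPL16, had none. Of 55 called members considered, 10 were passed over because a coding exon of another gene lies in the stretch. Capitals mark CCGGAAG, or CTTCCGG where it lies on the other strand, the core of the motif of ETS factors such as GABPA.

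The large subunit members that fell were MRPL39 (chr21:25607482-25607581, minus strand) and MRPL16 (chr11:59810779-59810878, minus), and those that rose were MRPL33 (chr2:27771619-27771718, plus) and MRPL40 (chr22:19432445-19432544, plus).
MRPL39: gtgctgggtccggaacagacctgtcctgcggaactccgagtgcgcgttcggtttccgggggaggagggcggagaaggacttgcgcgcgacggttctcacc
MRPL16: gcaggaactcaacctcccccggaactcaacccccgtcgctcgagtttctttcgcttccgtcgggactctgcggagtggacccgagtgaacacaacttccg
MRPL33: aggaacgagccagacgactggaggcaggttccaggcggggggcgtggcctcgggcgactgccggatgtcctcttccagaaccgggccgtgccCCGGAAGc
MRPL40: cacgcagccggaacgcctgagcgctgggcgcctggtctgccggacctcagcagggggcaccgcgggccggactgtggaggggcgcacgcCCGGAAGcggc
The ETS core stands in the promoters of both that rose, with its first base 8 bases before the start in MRPL33 and 11 in MRPL40. It is not in the stretches of MRPL39 and MRPL16.

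The small subunit members that fell were MRPS15 (chr1:36464385-36464484, minus) and MRPS26 (chr20:3045952-3046051, plus), and those that rose were MRPS10 (chr6:42217862-42217961, minus) and MRPS31 (chr13:40771191-40771290, minus).
MRPS15: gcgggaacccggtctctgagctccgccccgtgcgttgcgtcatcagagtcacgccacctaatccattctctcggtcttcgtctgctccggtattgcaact
MRPS26: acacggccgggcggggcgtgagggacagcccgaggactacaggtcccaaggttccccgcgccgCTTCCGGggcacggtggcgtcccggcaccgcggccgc
MRPS10: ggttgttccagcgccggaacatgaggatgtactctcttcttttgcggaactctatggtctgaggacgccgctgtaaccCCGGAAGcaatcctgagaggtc
MRPS31: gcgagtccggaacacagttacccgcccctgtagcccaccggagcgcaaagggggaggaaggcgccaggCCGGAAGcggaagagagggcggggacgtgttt
The core lies 22 bases before the start in MRPS10, 32 in MRPS31 and, on the other strand, 37 in MRPS26, which fell. It is not in the stretch of MRPS15.

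Over the 69 members with a RefSeq promoter, the ETS core was found in the 250 bases before the start in 22 (31.9%), against 11.8% of 15843 promoters of protein-coding genes, both strands being searched. It was present in 14 of 45 members that fell (31.1%), 6 of 10 that rose (60.0%) and 2 of 13 that were not called (15.4%). MRPL and MRPS promoters held it in similar shares, in 13 of 41 (31.7%) and 9 of 28 (32.1%). The NRF1 motif, GCGCA and GCGC with any base between them, was found in 8 members (11.6%) and 7.65% of all promoters, with 2 of the 45 that fell, 1 of the 10 that rose and 5 of the 13 not called (38.5%). The YY1 motif, AA, any base and then ATGGCGG, was in 3 members (4.35%) and in 0.915% of all promoters. The 15843 promoters were not limited to genes tested here or to genes of a similar level, so the members are set against an unlike set. No test was made of these shares. A match describes the letters of a promoter and not a bound factor, and the absence of a match says only that these letters are not in the window. MRPL2, MRPL10, MRPL13, MRPL15, MRPL21, MRPL23, MRPL35 and MRPS28 had no promoter in the table used.

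By symbol, the subunits were alike in direction. Of the 48 MRPL genes 30 fell (62.5%), 8 rose and 10 were not called, with a median log2 fold change of -0.26 and quartiles of -0.56 and 0.00. Without panobinostat library 2 or panobinostat library 3 the MRPL genes that rose were 5 and 4. Of the 28 tested MRPS genes 20 fell (71.4%), 4 rose and 4 were not called, with a median of -0.20 and quartiles of -0.45 and 0.00. In the main comparison 41.0% of all genes tested fell and 41.8% rose. With upper-quartile scaling 26 of the 48 MRPL genes (median -0.14) and 10 of the 28 MRPS genes (median -0.083) fell. There 35.2% of all genes fell. With a filter of 5 CPM 13 of the 28 MRPS genes fell, beside 4934 of the 11492 genes tested. In both settings the MRPS share of falls was near that of all genes. The medians differed by -0.06 in the main comparison. Genes of a subunit are not replicates of the treatment, so this difference was not tested.

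Summed over genes, each subunit held a steady share of the libraries within a group. The 48 MRPL genes summed to 2744, 2751 and 2804 CPM with vehicle and to 2212, 2203 and 2269 with panobinostat, 2767 ± 32.8 against 2228 ± 36.0 (a change of -19.5%). The 29 MRPS genes summed to 1650, 1657 and 1661 CPM with vehicle and to 1344, 1341 and 1378 with panobinostat, 1656 ± 5.92 against 1355 ± 20.6 (-18.2%). All 3 treated libraries lay below all 3 vehicle libraries in both sums. The MRPL sum divided by the MRPS sum was 1.66, 1.66 and 1.69 with vehicle and 1.65, 1.64 and 1.65 with panobinostat, a change of -1.55% in the mean. The ranges of this ratio were apart, and the gap between them was about the SD of the vehicle libraries. With 3 libraries a group, a 2-sided exact permutation test cannot go below 0.10, so no p is given for the sums.

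**Figure D2:**
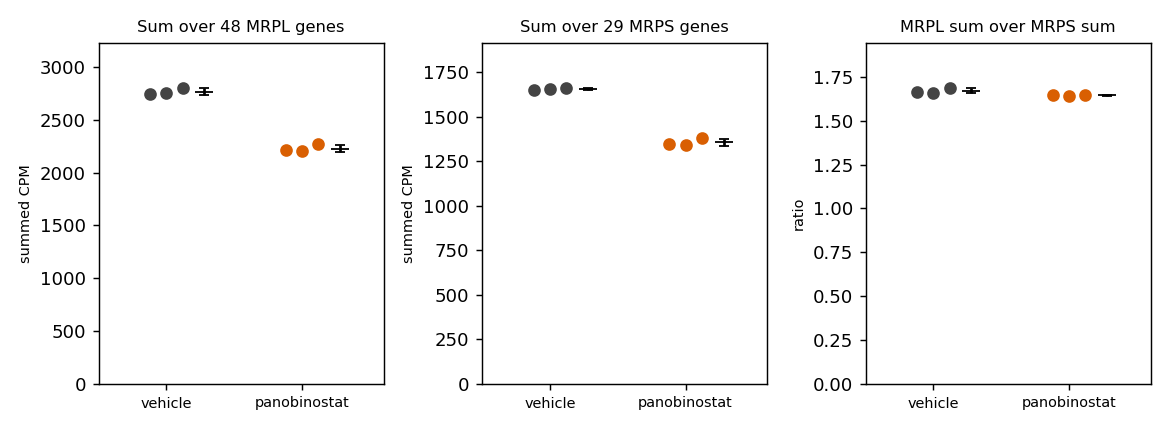
Summed TMM-scaled CPM of the 48 MRPL genes and of the 29 MRPS genes, and the ratio of the sums, in each library (dots) with mean ± SD (bars, n = 3), all axes starting at 0. Both sums drop from vehicle to panobinostat (2767 to 2228 and 1656 to 1355 CPM), while the ratio stays near 1.65.

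Symbols and structure do not coincide for every member. In the structural naming of the mitochondrial ribosome MRPS30 is mL65 and MRPS18A is mL66, both proteins of the large subunit, and MRPS36 (KGD4) belongs to neither subunit and is known as a component of the 2-oxoglutarate dehydrogenase complex. Placed by structure, 32 of 50 tested large subunit members fell and 8 rose (median -0.26), and 17 of 25 small subunit members fell and 4 rose (median -0.18). The large subunit sum divided by the small subunit sum then changed from 1.93 ± 0.0194 to 1.88 ± 0.00348, by -2.61%.

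Members with and without a bacterial counterpart had medians close to each other. Of the 45 tested members with a bacterial counterpart 30 fell and 5 rose (median -0.20), and of the 30 specific to mitochondria 19 fell and 7 rose (median -0.23). In the large subunit the medians were -0.34 for 30 members with a bacterial counterpart and -0.25 for 20 mitochondria-specific ones. In the small subunit they were -0.16 for 15 and -0.22 for 10. These differences were not tested.

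Among large subunit proteins, MRPL9 (bL9m) had the largest fall. Its level was 89.4, 87.1 and 88.3 CPM with vehicle and 40.7, 39.2 and 39.8 with panobinostat, 88.3 ± 1.14 against 39.9 ± 0.77. The groups lay far apart, a 2.21-fold fall (log2 fold change -1.15 ± 0.04 SE, adjusted p = 1.55e-13 by edgeR's quasi-likelihood test). MRPL9 shares exon sequence on the opposite strand with OAZ3, which is at 0.384 CPM with vehicle and 0.420 with panobinostat.

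MRPL23 (uL23m), whose bacterial counterpart lines the mouth of the exit tunnel, had 26.6, 26.3 and 23.7 CPM with vehicle and 12.7, 12.9 and 13.7 with panobinostat. The ranges were apart, and it fell by 0.96 on the log2 scale (SE 0.07, edgeR adjusted p = 5.92e-10). MRPL49 (mL49) and MRPL39 (mL39), both specific to mitochondria, came next. MRPL49 had 79.3, 74.0 and 78.2 CPM with vehicle and 42.2, 41.5 and 43.5 with panobinostat (log2 fold change -0.86 ± 0.05), and MRPL39 had 38.9, 38.7 and 40.1 against 21.1, 22.8 and 21.8 (-0.84 ± 0.06). Neither gene's groups overlapped. MRPL49 shares exon sequence with FAU, which fell by 0.33, and SYVN1, which rose by 0.86, both on the opposite strand, and without a stated strand setting their reads cannot be told apart.

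MRPL15 (uL15m) had 54.0, 57.2 and 58.3 CPM with vehicle and 33.0, 34.8 and 35.1 with panobinostat, a fall of 39.3%. MRPL16 (uL16m), given here because its promoter is shown, had 61.5, 60.6 and 64.2 against 36.0, 35.4 and 42.1 CPM, a fall of 39.2%. The treated libraries of both genes lay below all vehicle libraries.

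The MRPL lines with the most reads, uncorrected for length, fell too. MRPL3 (uL3m, which reaches from the surface of the large subunit towards its catalytic centre) had 188, 199 and 213 CPM with vehicle and 124, 124 and 126 with panobinostat, 200.0 ± 12.5 against 125 ± 0.695 (log2 fold change -0.68 ± 0.04, edgeR adjusted p = 1.93e-10). MRPL51 (mL51) had 135, 131 and 139 against 86.6, 87.5 and 91.4 CPM (-0.61 ± 0.04). MRPL19 (bL19m) had 136, 139 and 152 against 115, 110.2 and 97.9 CPM, with the widest spread among the treated libraries of these 3 genes and still no overlap (-0.40 ± 0.06). MRPL51 shares exon sequence with NCAPD2 and MRPL19 with GCFC2, and both of these partners fell (log2 fold changes of -0.47 and -0.84).

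The large subunit genes that rose did so by less than 1.5-fold. MRPL33 (bL33m, among the smallest proteins of the large subunit) had 43.8, 45.2 and 49.4 CPM with vehicle and 61.7, 63.0 and 67.6 with panobinostat. The groups were apart, a 1.39-fold rise that was the largest of any member (log2 fold change 0.47 ± 0.05, edgeR adjusted p = 3.97e-07). MRPL40 (mL40) rose from 27.3, 26.0 and 25.0 to 32.2, 33.1 and 34.8 CPM, 1.28-fold. MRPL34 (bL34m) rose from 41.5, 41.6 and 39.3 to 48.9, 48.4 and 49.8 CPM, 1.20-fold, and shares exon sequence with ABHD8, which rose as well (0.54). MRPL10 (uL10m), the base of the stalk that carries bL12m and recruits translation factors, rose from 77.9, 76.3 and 75.6 to 90.9, 88.0 and 95.8 CPM, also 1.20-fold. No vehicle library of these 4 genes reached the lowest treated library.

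MRPL41 (mL41) was a less firm rise. It had 31.1, 31.6 and 25.7 CPM with vehicle and 33.8, 31.6 and 36.7 with panobinostat, and the groups overlapped at library 2 of each. Its log2 fold change was 0.21 ± 0.08 with an adjusted p of 0.0221 by edgeR's quasi-likelihood test. The call was lost without vehicle library 3 (0.10), without panobinostat library 3 (0.15) and with a replicate block (0.21). The other called MRPL genes lay between these, and MRPL43, MRPL44 and MRPL53, the remaining genes that rose, had log2 fold changes of 0.12, 0.14 and 0.14; they were outside the naming rule and are named after their values were seen. Each was called in only 9 of 15 fits. MRPL43 shares exon sequence on the opposite strand with SEMA4G, which fell (-0.32), and TWNK, the helicase gene listed as C10orf2, which rose (0.17). Without a stated strand setting their reads cannot be told apart. MRPL43 and MRPL44 lost the call without vehicle library 1 (0.09 and 0.10), vehicle library 2 (0.09 and 0.12), panobinostat library 2 (0.13 and 0.14) or panobinostat library 3 (0.08 and 0.11). MRPL53 lost it without vehicle library 3 (0.06), or without panobinostat library 1 (0.15), 2 (0.15) or 3 (0.11).

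**Figure D3:**
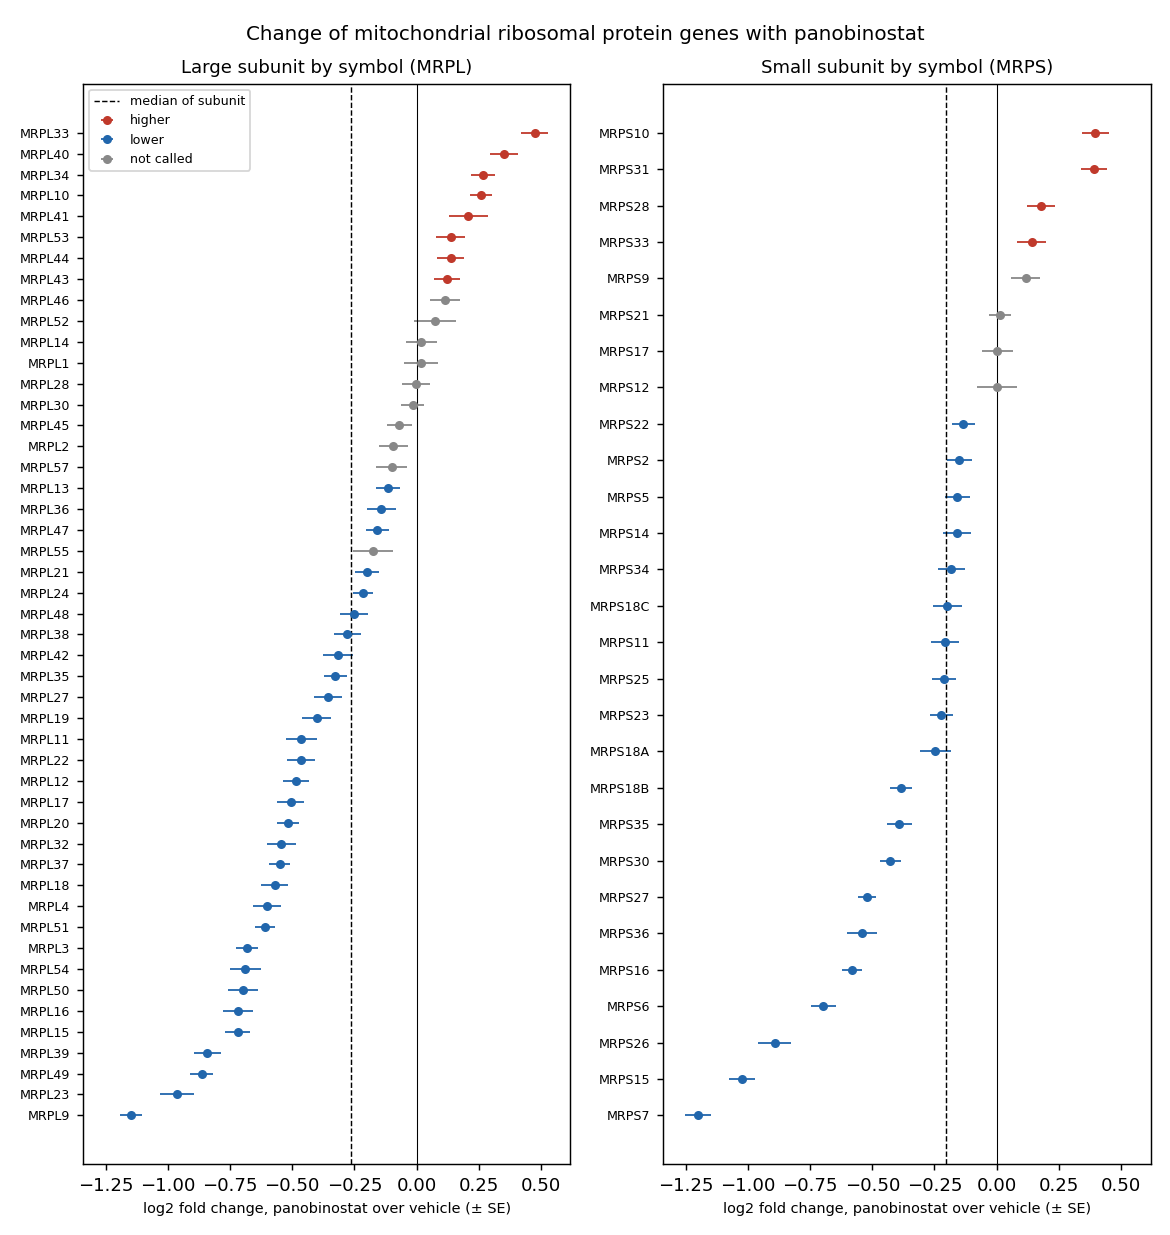
Log2 fold change of panobinostat over vehicle (x axis, points with SE bars) for each tested MRPL gene (left) and MRPS gene (right), ordered by change and coloured by call, with a dashed line at the median of the subunit. Both panels run from falls near 2-fold through most of the genes below zero to a few small rises, ending with MRPL33 (0.47) and MRPS10 (0.40).

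In the small subunit, MRPS7 (uS7m), a protein of the head near the exit site, had the largest fall of all members. It had 56.3, 59.1 and 55.8 CPM with vehicle and 24.4, 24.5 and 25.6 with panobinostat, 57.1 ± 1.76 against 24.8 ± 0.655. This 2.30-fold fall left the groups far apart (log2 fold change -1.20 ± 0.05, edgeR adjusted p = 6.53e-13). MRPS7 shares exon sequence on the opposite strand with GGA3 and MIF4GD, whose log2 fold changes were -0.20 and -0.31. MRPS15 (uS15m), which binds the small rRNA directly, had 63.8, 66.5 and 66.1 CPM with vehicle and 30.9, 31.2 and 34.5 with panobinostat. It fell 2.03-fold with no overlap (-1.02 ± 0.05, edgeR adjusted p = 7.96e-12).

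MRPS26 (mS26) had 53.3, 48.8 and 44.5 CPM with vehicle and 25.5, 25.9 and 27.7 with panobinostat. Its vehicle libraries were spread more widely than its treated ones, and the groups were still apart (-0.89 ± 0.07). MRPS6 (bS6m) had 52.0, 49.0 and 49.8 against 31.4, 31.0 and 30.6 CPM, a log2 fold change of -0.70 ± 0.05. MRPS16 (bS16m) had means of 102 ± 2.08 and 68.4 ± 1.51 CPM (-0.58 ± 0.04). Both share exon sequence on the same strand with a gene that fell further, MRPS6 with SLC5A3 (-0.94) and MRPS16 with DNAJC9 (-1.29). The sources used here do not say to which gene reads of such exons were assigned.

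MRPS27 (mS27), a protein with pentatricopeptide repeats, a fold that binds RNA, had the most reads of any MRPS line, uncorrected for length. It had 194, 195 and 199.7 CPM with vehicle and 137, 134 and 139 with panobinostat, so the groups were apart (-0.52 ± 0.04, edgeR adjusted p = 6.44e-10). MRPS35 (mS35) had 92.6, 100.3 and 102 against 76.1, 78.0 and 71.0 CPM (-0.39 ± 0.05).

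The MRPS genes that rose were MRPS10, MRPS31, MRPS28 and MRPS33. MRPS10 (uS10m), a protein of the head, had 45.9, 48.8 and 52.7 CPM with vehicle and 66.4, 64.5 and 63.1 with panobinostat, a 1.32-fold rise without overlap (0.40 ± 0.05, edgeR adjusted p = 2.43e-06). MRPS31 (mS31) rose 1.31-fold, from 37.5, 38.1 and 41.4 to 51.2, 50.5 and 51.7 CPM. Both have annotated pseudogenes, 2 for MRPS10 and 4 for MRPS31, whose reads the counting could split. MRPS28 (bS1m) rose 1.13-fold, from 25.1, 27.0 and 24.9 to 29.3, 28.6 and 29.1 CPM.

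MRPS33 (mS33) was the least firm of them, with 31.0, 34.1 and 34.6 CPM against 36.4, 35.1 and 38.5. Its groups were close to touching, and its log2 fold change of 0.14 ± 0.06 had an adjusted p of 0.0354 by edgeR's quasi-likelihood test. The call was lost without vehicle library 1 (0.08), vehicle library 2 (0.14), panobinostat library 1 (0.14) or panobinostat library 3 (0.10), and also with a replicate block (0.14) or unfiltered counts (0.10).

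**Figure D4:**
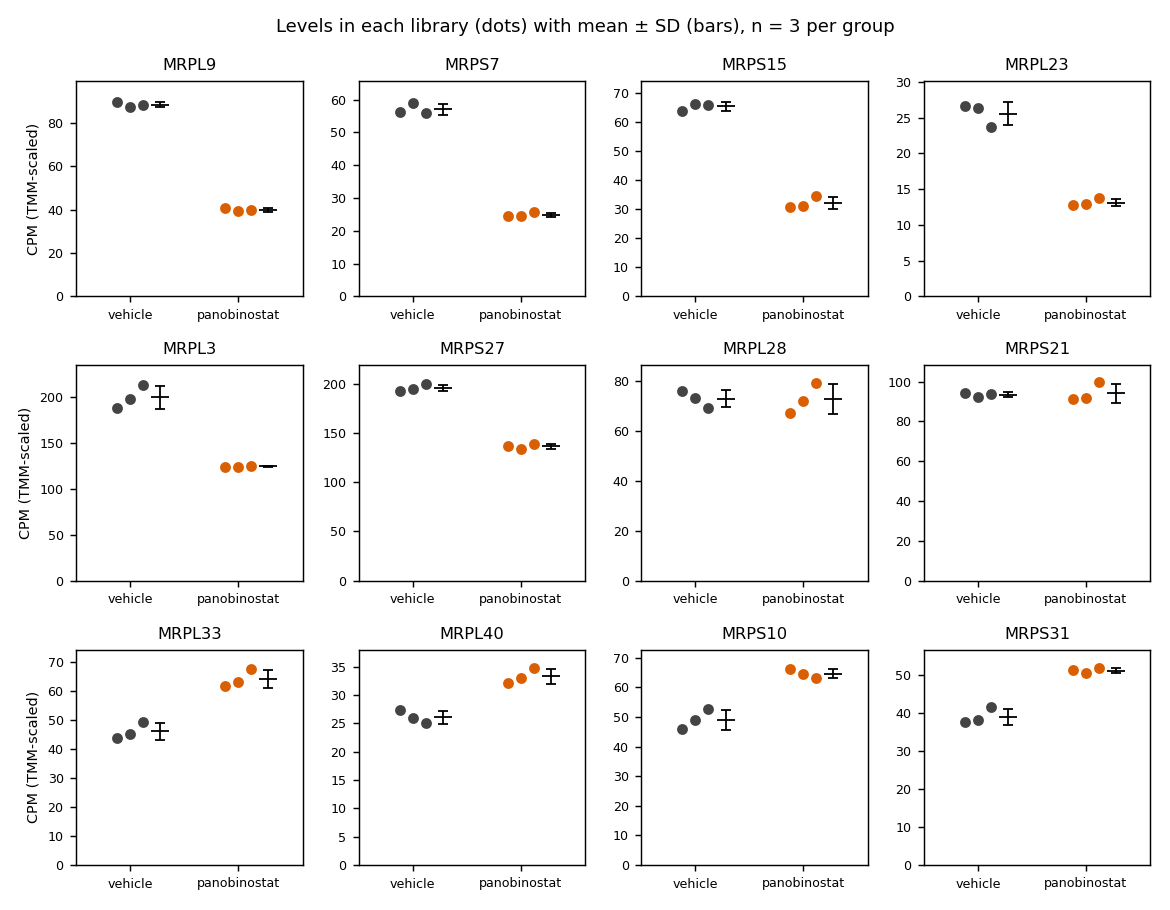
TMM-scaled CPM of 12 mitochondrial ribosomal protein genes in each library (dots) with mean ± SD (bars, n = 3), each axis starting at 0. MRPL9, MRPS7 and MRPS15 drop to less than 0.5 of the vehicle mean, MRPL28 and MRPS21 overlap between the groups, and MRPL33, MRPL40, MRPS10 and MRPS31 lie higher with panobinostat.

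The paralogs MRPS18A, MRPS18B and MRPS18C occupy different places, in the large subunit (mL66) and in the small subunit (mS40 and bS18m). MRPS18B had 83.4, 82.6 and 80.3 CPM with vehicle and 63.2, 60.3 and 65.4 with panobinostat (-0.38 ± 0.05). MRPS18A had 30.2, 26.3 and 27.9 against 23.1, 24.0 and 24.0 CPM (-0.25 ± 0.06), and MRPS18C had 25.5, 24.5 and 25.6 against 22.4, 21.1 and 22.5 CPM (-0.20 ± 0.06). All 3 fell with no overlap. With upper-quartile scaling the calls of MRPS18A (-0.13) and MRPS18C (-0.08) were lost. MRPS30 (mL65) had 92.4, 97.1 and 95.7 against 70.9, 71.2 and 70.0 CPM (-0.43 ± 0.04). MRPS36, the dehydrogenase component, fell as well, from 32.1, 33.0 and 36.7 to 23.1, 23.8 and 23.1 CPM (-0.54 ± 0.06).

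The 14 members that were not called spanned log2 fold changes of -0.18 to 0.12. MRPS12 (uS12m, at the decoding centre) had 29.5, 25.9 and 22.5 CPM with vehicle and 25.9, 25.6 and 26.4 with panobinostat, a log2 fold change of 0.00 ± 0.08. MRPS21 (bS21m) had 94.3, 92.1 and 93.9 against 91.1, 91.9 and 99.7 CPM (0.01 ± 0.04), and it has 8 annotated pseudogenes. MRPL28 (bL28m) shares exon sequence on the same strand with TMEM8A, which rose (log2 fold change 0.61). MRPL28 had 76.1, 73.3 and 69.2 against 67.3, 71.9 and 79.2 CPM. The groups of these 3 genes overlapped. MRPL30 (uL30m, -0.02), MRPS17 (uS17m, 0.00), MRPL1 (uL1m, 0.02) and MRPL14 (uL14m, 0.02) also had differences within 1 SE of 0.

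MRPL55 (bL31m, -0.18 ± 0.08), MRPL57 (mL63, -0.10 ± 0.06), MRPL2 (uL2m, -0.09 ± 0.06) and MRPL45 (mL45, -0.07 ± 0.05) were on the lower side. MRPL52 (mL52, 0.08 ± 0.08), MRPL46 (mL46, 0.11 ± 0.06) and MRPS9 (uS9m, 0.12 ± 0.06) were on the higher side. Without vehicle library 3, MRPL55 (-0.28), MRPL57 (-0.18) and MRPL2 (-0.16) were called lower and MRPS9 (0.15) higher. MRPS9 was called higher in 5 of 15 fits. Of the 14, 8 had a 95% interval that stayed within a log2 fold change of 0.2 on either side.

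The counts of called members moved more with upper-quartile scaling than with the removal of any library. Upper-quartile scaling moved the median of all genes by 0.12 on the log2 scale, and then 36 members fell and 18 rose, where 35.2% of all genes fell and 47.2% rose. Over the edgeR fit and 14 alternatives (other scalings, filters, tools, a replicate block and the removal of each library), 36 members fell in all 15 and 7 rose in all 15. The 7 were MRPL33, MRPL40, MRPL34, MRPL10, MRPS10, MRPS31 and MRPS28. The share of all genes tested that kept a call in all 15 is not given here, and 82.8% of them were called in the edgeR fit. Whether 36 and 7 members are many or few beside other genes therefore cannot be read from these counts. A further 19 called members lost the call in at least 1 alternative, and none was called in the opposite direction.

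For levels between genes, CPM were divided by the length in kilobases of the principal GENCODE 29 transcript. On this scale the median MRPL gene had 38.5 with vehicle and 28.4 with panobinostat, and the median MRPS gene 28.4 and 24.7. MRPL3 was highest with vehicle at 117 CPM per kilobase, followed by MRPL51 and MRPL20 at 109 and MRPL24 at 107, and MRPL42 was lowest of the tested members at 6.98 on an annotated transcript of 15582 bases. With panobinostat MRPL33, which rose, reached 124 CPM per kilobase from 89.1.

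The tested members were also ordered by mean CPM, which is not corrected for length. In that order, 13 of the 25 lowest members fell (52.0%), with a median log2 fold change of -0.16. In the middle 26 the count was 17 (65.4%, median -0.21), and in the 25 highest it was 20 (80.0%, median -0.38). The counts of members that rose were 3, 8 and 1. These differences were not tested. Of all genes tested 41.0% fell, and of the 7819 with a mean level within the range of the members 50.3%. Shares of all genes at each of these levels are not given here. Whether the gradient is particular to the members therefore cannot be read from these counts. Across the 76 genes the Spearman correlation between mean CPM and log2 fold change was -0.17, a weak relation among genes that share libraries and are not independent replicates.

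Overlapping annotation touched many members. By GENCODE 29, 25 of the 77 share an exon with another gene and 34 have an annotated pseudogene by symbol. Among the 30 with neither, 20 fell, 5 rose and the median log2 fold change was -0.21, the value for all members.

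Of the 69 members with a promoter, 18 have a protein-coding gene that starts within 1000 bases in the opposite direction. In 11 of these pairs both genes were called. Both fell in 6 and the member fell while the partner rose in 5, so 54.5% shared a direction, against 64.6% of 466 such pairs over all genes. In the closest pair MRPL27 (log2 fold change -0.36) and EME1 (-1.63) start 45 bases apart, and MRPL49 (-0.86) and FAU (-0.33) start 49 apart. MRPS12 (0.00) was not called while its neighbour SARS2, the mitochondrial seryl-tRNA synthetase 181 bases away, fell (-0.48). MRPS12 and SARS2 share exon sequence on opposite strands, and without a stated strand setting their reads cannot be told apart. MRPS11 (-0.21), which fell, and MRPL46 (0.11), which was not called, are neighbours with starts 320 bases apart.

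Mitochondrial ribosomal proteins with other symbols also moved in both directions. Of 6 such genes 3 fell (50.0%) and 1 rose (16.7%), beside 41.0% and 41.8% of all genes tested. GADD45GIP1 (mL64) fell from 49.8 ± 1.62 to 28.9 ± 0.661 CPM and ICT1 (mL62), a peptidyl-tRNA hydrolase built into the large subunit, from 29.5 ± 0.545 to 20.1 ± 0.831 CPM. DAP3 (mS29), a GTP-binding protein of the small subunit, rose from 211 ± 3.01 to 276 ± 6.74 CPM (log2 fold change 0.39).

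Most factors that assemble the ribosome fell. Of 23 such genes 17 fell (73.9%) and 5 rose (21.7%), beside 41.0% and 41.8% of all genes tested. Their median log2 fold change was -0.55, against -0.21 over the ribosomal proteins, a difference that was not tested. MTG1, a GTPase of large subunit assembly, fell from 31.4 ± 0.573 to 13.4 ± 0.592 CPM, and NSUN4, an rRNA methyltransferase that also acts in the joining of the subunits, from 44.9 ± 2.56 to 22.4 ± 1.14 CPM. NOA1, a GTPase of small subunit assembly, rose from 53.5 ± 0.687 to 94.6 ± 3.09 CPM, and MALSU1, which binds the late large subunit precursor, from 21.9 ± 0.18 to 33.1 ± 1.26 CPM.

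Translation factors of the mitochondrion moved in both directions. Of 17 genes 8 rose (47.1%) and 5 fell (29.4%), beside 41.8% and 41.0% of all genes tested, with a median log2 fold change of 0.05. LRPPRC, which stabilises mitochondrial mRNAs, rose from 428 ± 16.1 to 681 ± 14.4 CPM and the initiation factor MTIF3 from 23.4 ± 0.868 to 39.1 ± 0.559 CPM, while the initiation factor MTIF2 fell from 95.7 ± 4.26 to 74.2 ± 3.93 CPM and TACO1, a translational activator, from 27.0 ± 1.17 to 14.7 ± 0.551 CPM. Of 17 mitochondrial aminoacyl-tRNA synthetases, which charge the tRNAs the ribosome uses, 13 fell (76.5%) and 3 rose (17.6%), with a median of -0.35. RARS2 fell from 46.2 ± 2.27 to 25.9 ± 0.752 CPM, and PARS2 rose from 11.7 ± 0.381 to 18.3 ± 1.46 and MARS2 from 13.0 ± 0.484 to 17.9 ± 0.416.

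Of 13 genes for the copying, transcription and RNA processing of mitochondrial DNA, 7 fell (53.8%) and 3 rose (23.1%), with a median of -0.09. The share that fell was 41.0% over all genes tested and 50.3% among those within the range of the members' mean levels. TFAM, which packs mitochondrial DNA, fell from 94.8 ± 6.77 to 70.5 ± 4.01 CPM, and the falls of SSBP1 (-0.44), HSD17B10 (-0.45), MTERF (-0.46), TEFM (-0.41) and KIAA0391 (-0.29) were of like size. TFB2M was called with a log2 fold change of only -0.09, a call that many of the alternatives lost. The mitochondrial RNA polymerase POLRMT rose from 40.6 ± 3.76 to 63.4 ± 1.38 CPM. POLG2 (0.77) and the helicase gene listed as C10orf2 (0.17) rose with it, though the call of C10orf2 was lost without vehicle library 2. C10orf2 (TWNK) shares exon sequence with MRPL43 on the opposite strand, so their reads cannot be told apart without a stated strand setting. ELAC2, TRMT10C and POLG, each with a log2 fold change of -0.05, were not called, though ELAC2 was without vehicle library 3.

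Among 9 regulators of mitochondrial biogenesis, 5 fell (55.6%) and 3 rose (33.3%), beside 41.0% and 41.8% of all genes tested. Of the 5, the 4 described here do not include the largest fall. PPARGC1A, a transcriptional coactivator known for raising mitochondrial gene expression, had 0.439, 0.406 and 0.389 CPM with vehicle and 29.3, 29.8 and 26.2 with panobinostat. This was a 68.6-fold rise (log2 fold change 6.10 ± 0.12, edgeR adjusted p = 2.71e-17). Its relative PPARGC1B (0.61) and the nuclear receptor ESRRA (0.52) rose too. PPRC1, the remaining member of the coactivator family, fell from 88.2 ± 5.89 to 50.0 ± 1.24 CPM and NRF1 from 18.9 ± 1.26 to 12.1 ± 0.467. GABPB1 (-0.40) and GABPA (-0.27) fell, and YY1 (0.07) was not called. The call of GABPA was lost without vehicle library 1 (-0.31) or vehicle library 3 (-0.20), with upper-quartile scaling (-0.15), with unfiltered counts (-0.31) and with the 5 CPM filter (-0.175). Whether any of these changes has a part in those of the ribosomal protein genes was not tested.

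For scale, of 81 tested genes with a symbol of a cytosolic ribosomal protein 61 fell (75.3%) and 5 rose (6.17%). Their median log2 fold change was -0.22, close to the -0.21 of the mitochondrial ones. Of 79 tested genes with a symbol of a nuclear-encoded subunit of respiratory complexes I to V 30 fell (38.0%) and 20 rose (25.3%), with a median of -0.07. The products of the mitochondrial ribosome assemble with these subunits. Over all genes tested 41.0% fell and 41.8% rose. Both lists were taken by symbol and include genes near 0 with vehicle, the lowest means being 0.0 and 0.0797 CPM. Their largest log2 fold changes were 8.67 and 7.44. All of these lists come from the same 6 libraries and were compared by counts and medians alone.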

How the data were processed

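The authors deposited 1 table of raw read counts per gene symbol for the 6 A375 libraries, without normalization. The table's name says STAR; version, build, annotation, kit and strandedness: not given in the sources used here. Columns were matched to samples by title and groups came from the labelled dose. Of 25435 lines, 92 were spike-in controls with 0 counts and were left out. The table was fitted whole in R 4.3.3 with edgeR 4.0.16 (filterByExpr, TMM, glmQLFit with robust = TRUE, glmQLFTest on group), Benjamini-Hochberg adjusted over all genes tested, with a common biological coefficient of variation of 0.0449. DESeq2 1.42.0 and limma-voom (limma 3.58.1) were alternatives. No set test was run, and lists are given by counts and medians. Replicates of a group differed by more than sampling noise (chi-square per degree of freedom 1.955 to 9.595).

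The members, the 6 gene lists and the rules were chosen with earlier results of these data known. Named members were, in each subunit, the 5 largest called rises and falls, the 3 with the highest mean CPM, all not called, the MRPS18 paralogs, MRPS30 and MRPS36. From each list up to 2 called genes per direction by adjusted p were named, and those of the short lists of mitochondrial DNA expression and biogenesis regulators; some genes the rule takes are not reported here. Structural names and classes were assigned by hand from standard nomenclature. Transcript lengths, exon overlaps and pseudogenes come from GENCODE 29, matched by symbol, and promoters from RefSeq (GRCh38.p14), of which 69 of 77 members matched. On simulated counts of panobinostat against vehicle over 14361 genes with 200 changed, edgeR recovered 76%, 88%, 92% and 100% of genes changed 1.25-, 1.5-, 2- and 4-fold and 2.73% of its 183 calls were unchanged genes. In the data themselves 82.8% of the genes tested were called, a setting the simulation did not have, so these rates need not hold for them.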

Additional observations from a re-analysis of the deposited data

How the results depend on the processing

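The direction of each subunit's median held under all alternatives run, and its size moved with scaling and filtering. The MRPL median log2 fold change of -0.26 was -0.25 with RLE scaling, library size scaling and DESeq2, -0.14 with upper-quartile scaling, -0.31 with no filter on low counts, -0.17 with a filter of 5 CPM in 3 libraries and -0.28 to -0.26 when each library was left out. The MRPS median of -0.20 was -0.083 with upper-quartile scaling, -0.25 with no filter, -0.11 with the 5 CPM filter and -0.23 to -0.18 with a library left out. MRPS genes called lower, 20 at first, were 10 when scaled by upper quartile and 13 with the 5 CPM filter. Of all genes tested 35.2% fell when scaled by upper quartile, and 4934 of 11492 with the 5 CPM filter. MRPL genes called higher, 8 at first, were 5 with no filter and 4 to 7 with a library left out (5 without panobinostat library 2, 4 without panobinostat library 3). Among members without exon overlap or annotated pseudogene, an alternative chosen after seeing the data, 14 MRPL and 6 MRPS genes fell, 4 and 1 rose, the MRPL median was -0.21 and the medians of the subunits differed by -0.004. Under upper-quartile scaling 18 members rose, where 12 did in the main fit, and MRPL14 (0.14) was among those newly called. MRPL30, on the lower side at first, also became called higher with this scaling (0.10). TFB2M, called lower at first, was then on the higher side without a call (0.025). MRPL2, MRPL28, MRPL45, MRPL57, ELAC2, POLG and TRMT10C, not called in either fit, also changed sign (0.02 to 0.12). Same-numbered libraries did not deviate together (correlations of -0.0776, -0.0576 and -0.1415, and no library was closest to its own number), so the numbers do not pair them. With a replicate block 4 MRPL genes rose and 28 fell, and 3 MRPS genes rose and 20 fell. The cause of these shifts was not tested. Tested members had at least 422 counts in every library, and the SE was largest for members with few counts, such as MRPL52 and MRPL55 (0.08), so small changes may be missed there.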
